A study of Homo sapiens with 12 samples.

Results

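The genes described here encode the TGF-beta and BMP signalling chain, and they are followed through the circular RNAs (circRNAs) made from them. A list of 41 genes was matched by name to the host gene column of the deposited circRNA table. Of these, 29 had at least 1 row, giving 75 circRNAs out of the 17938 listed (0.418%), and 65 of the 75 had at least 1 read. The 12 listed genes with no row were TGFB2, BMP4 and LTBP3 among ligands and their binders, TGFBR3, ACVR2B and ENG among receptors, the SMADs SMAD6, SMAD7 and SMAD9, the repressor TGIF1, and MAP3K7 and TAB3 of the TAK1 arm. No statement is made about the linear transcripts of any gene, since the table counts back-splice junctions alone.

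Ligands of the TGF-beta family bind pairs of type II and type I receptor kinases, which phosphorylate receptor-regulated SMAD proteins. These join the common partner SMAD4 and act on transcription in the nucleus, while ubiquitin ligases, anchors and co-repressors set how long the signal lasts, and the kinase TAK1 with its TAB adaptors carries a SMAD-independent branch. In the colon the pathway restrains epithelial growth, and TGFBR2, ACVR2A, SMAD4 and BMPR1A are known tumour suppressors or predisposition genes of that tissue. A circRNA forms when a downstream splice donor joins an upstream acceptor, and a read across that junction identifies it.

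Libraries of rRNA-depleted total RNA came from HCT116 and Lovo, established human colorectal cancer cell lines, each in a 5-fluorouracil (5-Fu) resistant and a sensitive, parental form. Resistant HCT116, sensitive HCT116, resistant Lovo and sensitive Lovo had 3 libraries each. Resistant cells of both lines had been taken through increasing 5-Fu from 0.1 to 2 μg/ml and could live for 3 days or more at the last dose, per the labels. HCT116 was kept in DMEM and Lovo in F12 medium. Each resistant form is a derivative of 1 line, so features of the derivative unrelated to the drug cannot be told apart from resistance. The labels do not state separate cultures or selections within a group, so a p-value here reflects just how much these libraries vary, which may be technical variation.

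Junction reads per library ranged from 5654 to 10535, which left most circRNAs with a handful of reads. The first principal component of the 300 circRNAs with enough reads to test held 40% of the variance and set HCT116 apart from Lovo. On the second, with 9.69%, resistant HCT116 replicate 1 lay at -11.3, away from the other resistant HCT116 libraries at -3.3 and -1.7 and from the sensitive ones at 5.2 to 5.5. Of 15 colorectal epithelial marker genes, 7 had circRNA reads (68 in all, 0 to 19 per library). The adhesion gene EPCAM had reads in all 4 groups, while CDH1 and CDH17 were at 0 in all 6 HCT116 libraries and had reads in Lovo only. None of 9 fibroblast, 5 immune and 4 endothelial markers had a row, so the table gives no measure of those cells.

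The 65 circRNAs held 387 reads, 0.42% of all junction reads, close to their share of the table. Receptors held 144 of these reads (37.2%), SMADs 98 (25.3%), ubiquitin ligases and a deubiquitinase 84 (21.7%), the TAK1 arm 26 (6.72%), SMAD anchors and repressors 18 (4.65%), and ligands with their binders 17 (4.39%). A group of 12 hosts with at least 10 reads each held 317 reads (81.9%), and the other 17 hosts held 70. The activin receptor gene ACVR2A alone held 16.8%.

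**Figure D1:**
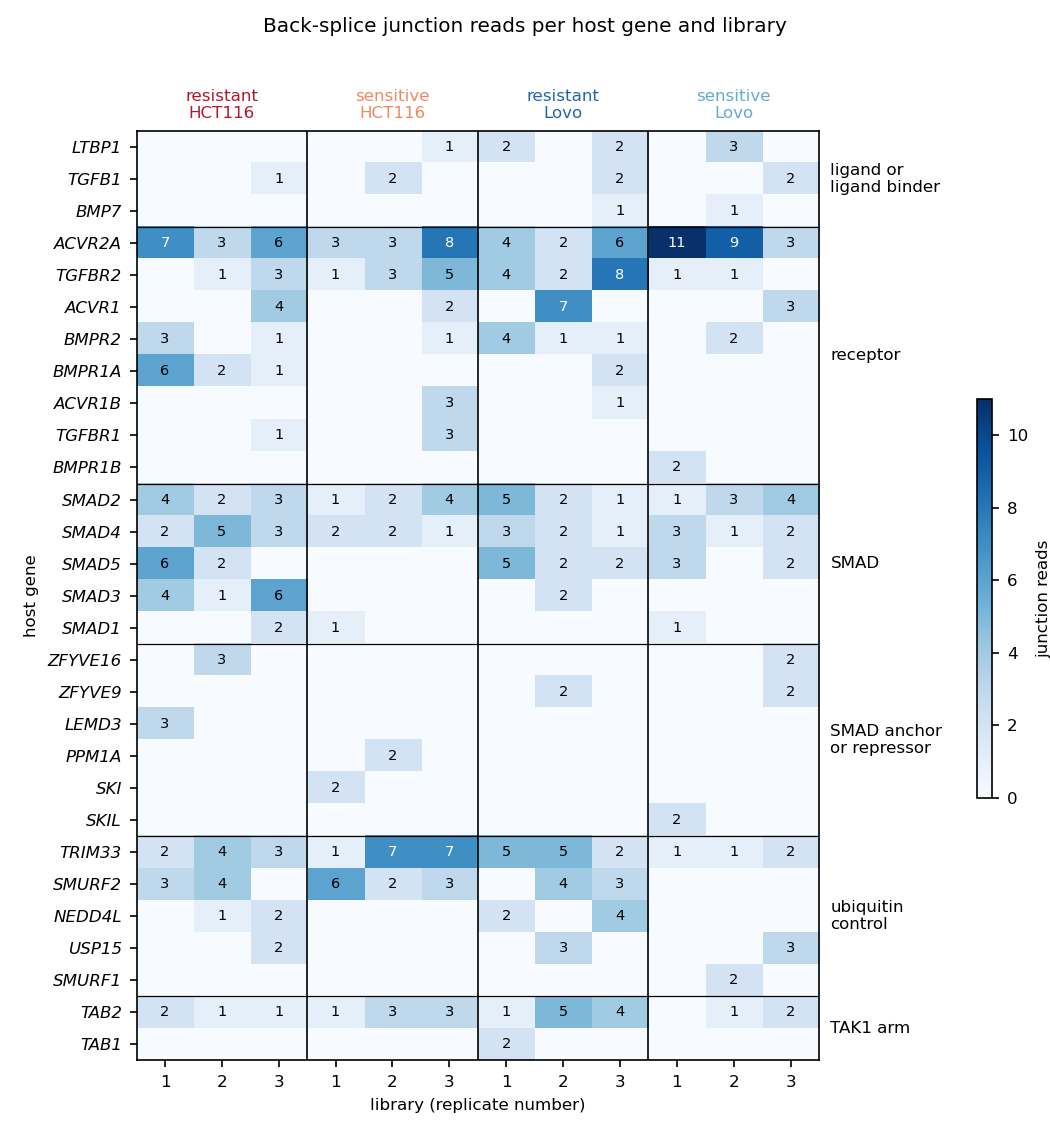
Back-splice junction reads of each of the 29 host genes (rows, grouped by role) in each of the 12 libraries (columns); an empty cell is 0 reads. ACVR2A, SMAD2, SMAD4 and TRIM33 had reads in every library, while BMPR1A and SMAD3 had none in either sensitive group.

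In class the members resembled the table they came from, while more of them had a circBase identifier and their median length and span were larger. Exonic circRNAs made up 61 of 75 (81.3%, against 78.8% of the table), 10 were of the class sense overlapping (13.3% against 14.9%) and 4 were intronic (5.33% against 5.93%). A circBase identifier was given for 54 (72% against 62.3%). The median predicted length of the exonic members was 721 bases, with quartiles of 431 and 964, against 571 in the table with quartiles of 364 and 936. The median genomic span of all members was 13984 bases, against 9961 in the table. Of the 65 with reads, 32 (49.2%) were seen in 1 library only, against 52.6% of the table, and 1, of TRIM33, was seen in all 12.

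Several circRNAs of 1 host commonly shared a splice site. Of 21 hosts with more than 1 circRNA, 16 had circRNAs with a common end, which covered 47 of the 67 circRNAs of these 21. All 4 circRNAs of ACVR2A began at position 148653870 of chromosome 2 (hg19). In SMAD2 4 of 5 shared 45423180 of chromosome 18, in SMAD4 3 of 6 shared 48573290 of the same chromosome, and in TRIM33 3 of 4 shared 115005726 of chromosome 1. Such circRNAs share a splice site and are not independent measures of a host.

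**Figure D2:**
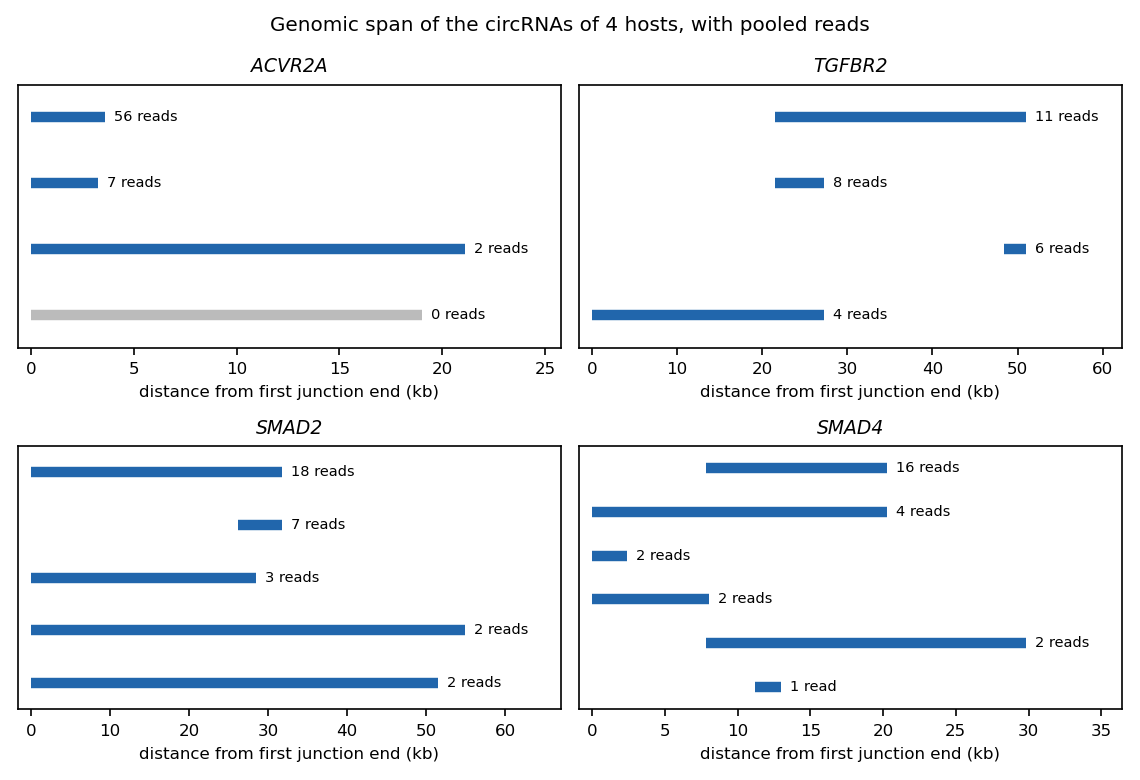
Genomic span of each circRNA of ACVR2A, TGFBR2, SMAD2 and SMAD4, in kb from the first junction end in the direction of transcription, with its reads pooled over 12 libraries beside each bar (grey, 0 reads). The 4 ACVR2A circRNAs start at the same splice site, and 1 of them holds 56 reads.

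Together the members took a somewhat larger share of junction reads in resistant than in sensitive libraries of both lines, by a margin that counting error covers. The share was 0.436%, 0.367% and 0.442% in resistant HCT116, and 0.289%, 0.294% and 0.389% in sensitive HCT116. Means were 0.415 ± 0.042% in resistant and 0.324 ± 0.057% in sensitive HCT116 (SD, n = 3 each), and the libraries overlapped. The ratio of summed reads, 110 against 85 and scaled by total junction reads, was 1.26 (exact conditional binomial 95% interval 0.939 to 1.69). Without resistant HCT116 replicate 1 it was 1.23 (0.878 to 1.71).

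In resistant Lovo the share was 0.489%, 0.558% and 0.538%, against 0.371%, 0.407% and 0.478% in sensitive Lovo. The Lovo groups did not overlap, with means of 0.528 ± 0.035% in resistant and 0.419 ± 0.054% in sensitive cells (SD, n = 3 each). The ratio there was 1.27 (0.942 to 1.72), from 116 and 76 reads. Left without ACVR2A, which ran the other way in Lovo, the ratio was 1.63 (1.16 to 2.32) in Lovo and 1.29 (0.936 to 1.78) in HCT116, a split chosen after seeing the data. The intervals used further on hold for counting error alone: no molecular identifiers were used, so several reads may stem from the same molecule. Where a fold is given as "at least", a group at 0 was set to a floor of 3 reads. The other count was taken as exact, so such a fold leaves out its counting error and is not a confidence limit. In bulk RNA, fewer cells making a circRNA and less of it per cell cannot be told apart.

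**Figure D3:**
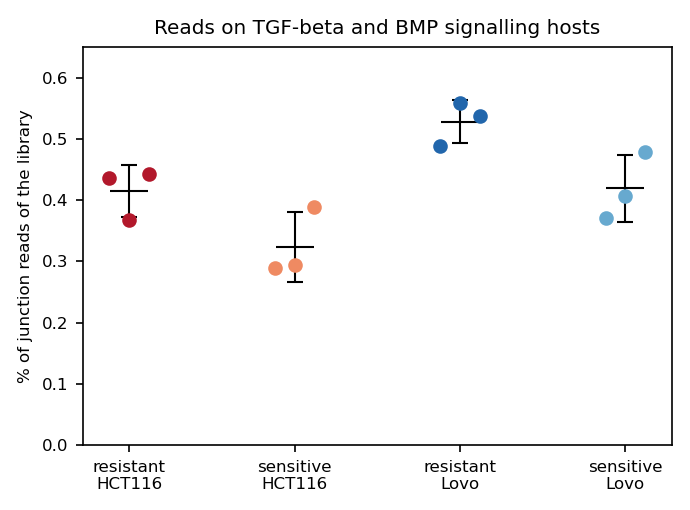
Share of each library's junction reads that fell on the 75 circRNAs, in percent; points are libraries, bars the mean ± SD of 3. Resistant Lovo libraries lie between 0.489% and 0.558%, above all sensitive Lovo libraries, while the HCT116 groups overlap.

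The number of members detected, drawn from the same reads as the share, tended to be larger in resistant libraries. In resistant HCT116 15, 16 and 19 member circRNAs had reads, against 12, 12 and 17 in sensitive HCT116, with overlap. In resistant Lovo 15, 17 and 18 had reads, against 11, 10 and 13 in sensitive Lovo, with no overlap. With every library thinned to 5654 reads the expected numbers were 13.5 ± 1.24 in resistant and 11.2 ± 1.40 in sensitive HCT116, and 15 ± 1.42 in resistant and 11 ± 1.77 in sensitive Lovo (SD, n = 3 each). For all circRNAs of the table the thinned numbers were 2697 ± 178 and 2687 ± 296 in resistant and sensitive HCT116, and 2608 ± 12.7 and 2459 ± 142 in resistant and sensitive Lovo.

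By host, resistant HCT116 had the larger scaled reads for 13 of 23 members with reads in that line (56.5%, against 47.1% of all hosts), and resistant Lovo for 13 of 25 (52%, against 50.7%). Between lines the members leaned to Lovo: HCT116 was higher for 8 of 24 (33.3%) in both the sensitive and the resistant state, against 54.2% and 52% of all hosts. Hosts whose resistant libraries all lay above the sensitive ones were BMPR1A and SMAD3 in HCT116 (2 of 23, 8.70%) and TGFBR2 in Lovo (1 of 25). The same held for 2.63% of all hosts in HCT116 and 2.46% in Lovo. No member lay wholly below in resistant cells of either line, against 2.16% and 2.66% of all hosts. Between lines, SMURF2 was wholly higher in sensitive HCT116 than in sensitive Lovo (1 of 24), as were 4.48% of all hosts, and 0 of 24 members were wholly lower, against 4.16%. Between the resistant lines 0 of 24 members lay apart in either direction, against 4.18% of all hosts above and 4.66% below.

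The formal test reached a single member. Only the main ACVR2A circRNA and the ACVR2A host sum had enough reads for the edgeR quasi-likelihood test, and neither passed an adjusted p of 0.05 in any of 5 contrasts. The count of calls was therefore 0 at both levels, with 0 at an unadjusted p under 0.05 in edgeR and 0 calls in DESeq2 and limma-voom. Of all circRNAs tested, 1.00% were called between resistant and sensitive HCT116, 0% in Lovo, 0.333% for the difference between these effects, 14.3% between the sensitive lines and 16.7% between the resistant lines. For host sums the values were 0.517%, 0%, 0%, 10.0% and 11.9% in the same order.

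Without the filter on low counts all 65 circRNAs and 29 hosts could be fitted, and again 0 passed in edgeR. Here 0.00671% of circRNAs and 0.0371% of hosts were called in HCT116, none of either in Lovo or for the difference of effects, 0.0939% and 0.519% between the sensitive lines, and 0.134% and 0.741% between the resistant lines. At an unadjusted p under 0.05 stood the host sums of BMPR1A, SMAD3 and SMAD5 in HCT116 (edgeR adjusted p = 0.747 each), 3 of 29 against 2.32% of all hosts. In Lovo it was SMURF2 (edgeR adjusted p = 0.855), 1 of 29 against 2.13%. For the difference of effects that was SMURF2 (edgeR adjusted p = 1), 1 of 29 against 3.48%. Between the sensitive lines SMAD5 and SMURF2 stood there (edgeR adjusted p = 0.706 and 0.523), 2 of 29 against 5.91%, and between the resistant lines none of 29, against 5.32%. Among single circRNAs it was 1 of 65, of SMURF2, between the sensitive lines (edgeR adjusted p = 0.691), against 1.93% of all circRNAs. In the other contrasts it was 0 of 65, against 0.905% in HCT116, 0.671% in Lovo, 1.30% for the difference and 1.86% between the resistant lines.

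Ligand genes contributed few reads. LTBP1, which encodes a matrix protein that tethers latent TGF-beta, had 8 reads, TGFB1, the TGF-beta ligand itself, had 7 and the ligand gene BMP7 had 2. By group that was 1 read in resistant HCT116, 3 in sensitive HCT116, 7 in resistant Lovo and 6 in sensitive Lovo. All 7 TGFB1 reads were of 1 junction, hsa_circ_0002837 (chromosome 19, 41847788 to 41848152, minus strand, hg19), spread over all 4 groups with 1 or 2 reads each.

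Receptors supplied the most reads. ACVR2A, a type II receptor for activins and some BMPs, was led by hsa_circ_0001073, an exonic circRNA of 473 bases (chromosome 2, 148653870 to 148657467, plus strand, hg19) with 56 of the 65 reads of the host. It had 7, 3 and 5 reads in resistant HCT116 and 1, 1 and 8 in sensitive HCT116, and the groups overlapped. In resistant Lovo it had 4, 0 and 6 reads, against 9, 9 and 3 in sensitive Lovo, again with overlap. As CPM of junction reads after TMM scaling, where 1 read is worth 113 to 165 CPM, it stood at 583 ± 218 in resistant and 397 ± 440 in sensitive HCT116 (SD, n = 3 each). In Lovo the level was 446 ± 418 CPM in resistant and 1049 ± 497 CPM in sensitive cells (SD, n = 3 each).

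The log2 fold change of this circRNA, resistant over sensitive, was 0.47 ± 0.84 in HCT116 (SE, edgeR quasi-likelihood test, Benjamini-Hochberg adjusted p = 0.945). In Lovo it was -1.23 ± 0.82 (edgeR adjusted p = 0.841), and the difference of the 2 effects was 1.70 ± 1.18 (edgeR adjusted p = 0.667). In limma-voom the Lovo contrast and the difference reached an unadjusted p under 0.05, with adjusted p of 0.493 and 0.417. Between lines the change was -1.30 ± 0.82 for sensitive HCT116 over sensitive Lovo (edgeR adjusted p = 0.284) and 0.40 ± 0.84 for the resistant forms (edgeR adjusted p = 0.852). None of these passed the test against the spread between libraries, and single libraries moved them: left out in turn, they gave 0.02 to 1.93 in HCT116, with the highest value without sensitive replicate 3. In Lovo the range was -2.02 (without resistant replicate 3) to -0.61 (without resistant replicate 2). The difference of effects ranged from 1.12 (without resistant Lovo replicate 2) to 3.08 (without sensitive HCT116 replicate 3). The sensitive lines ranged from -2.69 to -0.88 (without sensitive HCT116 replicate 3 and replicate 2), and the resistant lines from -0.13 to 1.15 (without resistant Lovo replicate 2 and replicate 3). A further 7 reads were hsa_circ_0007734, which begins at the same position and ends at 148657136.

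Summed over its circRNAs, ACVR2A had 7, 3 and 6 reads in resistant HCT116 and 3, 3 and 8 in sensitive HCT116, with overlap. In Lovo it had 4, 2 and 6 reads in resistant and 11, 9 and 3 in sensitive cells, also with overlap. The counting ratio was 1.11 (0.508 to 2.46) in HCT116 and 0.434 (0.197 to 0.908) in Lovo, where counting error alone does not cover the difference but the spread between libraries does: the log2 fold change was -1.10 ± 0.78 (SE, edgeR adjusted p = 0.929). In HCT116 it was 0.15 ± 0.80 (edgeR adjusted p = 0.994). The counting interval in Lovo took in 1 when any of 4 of the 6 Lovo libraries was left out.

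TGFBR2, the type II receptor that binds TGF-beta, had more reads in resistant than in sensitive Lovo and fewer in resistant than in sensitive HCT116. It had 4, 2 and 8 reads in resistant Lovo, against 1, 1 and 0 in sensitive Lovo, with no overlap. The ratio of 14 to 2 reads was 5.82 (1.34 to 52.8), 3.77 (0.674 to 38.2) without resistant Lovo replicate 3, 4.02 (0.923 to 36.4) without sensitive replicate 3 and 7.89 (1.20 to 333) without sensitive replicate 2. In HCT116 it had 0, 1 and 3 reads in resistant cells and 1, 3 and 5 in sensitive cells, a ratio of 0.432 (0.0972 to 1.55) with overlap, and 0.162 (0.00371 to 1.17) without resistant HCT116 replicate 3. The fit without a filter gave TGFBR2 edgeR adjusted p = 0.855 in Lovo, 0.827 in HCT116 and 1 for the difference (unadjusted 0.0585, 0.395 and 0.0505).

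The reads of TGFBR2 came from 4 circRNAs on the plus strand of chromosome 3 (hg19). The most abundant was hsa_circ_0064654 (30686239 to 30715738, 11 reads), with 1 read in resistant HCT116, 5 in sensitive HCT116, 4 in resistant Lovo and 1 in sensitive Lovo. All 6 reads of hsa_circ_0064656 (30713130 to 30715738) were in resistant Lovo replicate 3. That was 1.66-fold above the floor of 3 reads set for the sensitive Lovo group at 0, with counting error left out. That library alone thus set the abundance of this junction.

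The BMP receptors differed in where their few reads fell. BMPR1A, a type I BMP receptor, had 6, 2 and 1 reads in resistant HCT116 and 0 in every sensitive HCT116 library, at least 2.92-fold higher. In Lovo it had 0, 0 and 2 reads in resistant cells and 0 in sensitive cells. Of the 9 reads in resistant HCT116, 6 were hsa_circ_0006675 (chromosome 10, 88598622 to 88635842, plus strand, hg19), all in replicate 1, the library that lay apart on the second component. Without that library 3 reads were left against 0, which is at the floor and gives no fold.

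BMPR2, the type II BMP receptor, had 3, 0 and 1 reads in resistant HCT116, against 0, 0 and 1 in sensitive HCT116. In Lovo it had 4, 1 and 1 reads in resistant cells and 0, 2 and 0 in sensitive cells. The ratios were 3.89 (0.385 to 192) in HCT116 and 2.49 (0.446 to 25.3) in Lovo, both with overlap. Replicate 1 held most resistant reads in both lines: without it 1 read stood against 1 in HCT116, 1.53 (0.0195 to 120), and 2 against 2 in Lovo, 1.27 (0.0919 to 17.5). Its leading circRNA was hsa_circ_0003218, with 7 of the 13 reads.

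ACVR1, a type I receptor for BMPs and activins, was seen in 1 library of each group. It had 0, 0 and 4 reads in resistant HCT116 and 0, 0 and 2 in sensitive HCT116, and 0, 7 and 0 in resistant Lovo and 0, 0 and 3 in sensitive Lovo. The circRNA hsa_circ_0004955 (chromosome 2, 158655939 to 158675071, minus strand, hg19) held 12 of these 16 reads. The type I receptor genes ACVR1B and TGFBR1 had 4 reads each, 3 of them in sensitive HCT116 replicate 3 in both cases, and BMPR1B had 2. As a class, receptors had 38 reads in resistant and 32 in sensitive HCT116, a ratio of 1.15 (0.702 to 1.91), and 42 and 32 in resistant and sensitive Lovo, 1.09 (0.673 to 1.79). Without sensitive HCT116 replicate 3, which held 22 of the 32 sensitive reads, the HCT116 ratio was 2.17, and without sensitive replicate 2 it turned to 0.931.

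SMAD hosts had about 3 times the reads in resistant as in sensitive HCT116. They summed to 16, 10 and 14 reads in resistant HCT116, against 4, 4 and 5 in sensitive HCT116, with no overlap. The ratio of 40 to 13 reads was 2.99 (1.57 to 6.10). It ranged from 2.83 to 3.27 when each library was left out in turn, and was 2.83 (1.38 to 6.05) without resistant HCT116 replicate 1. In Lovo the SMADs had 13, 8 and 4 reads in resistant and 8, 4 and 8 in sensitive cells, a ratio of 1.04 (0.554 to 1.97). Whether the lines differ in this was not tested. Since the members were chosen with results known, no p is given for a sum over them. Sums were taken for every role in both lines and were not planned. How often sums over other sets of hosts would lie apart was not tested.

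**Figure D4:**
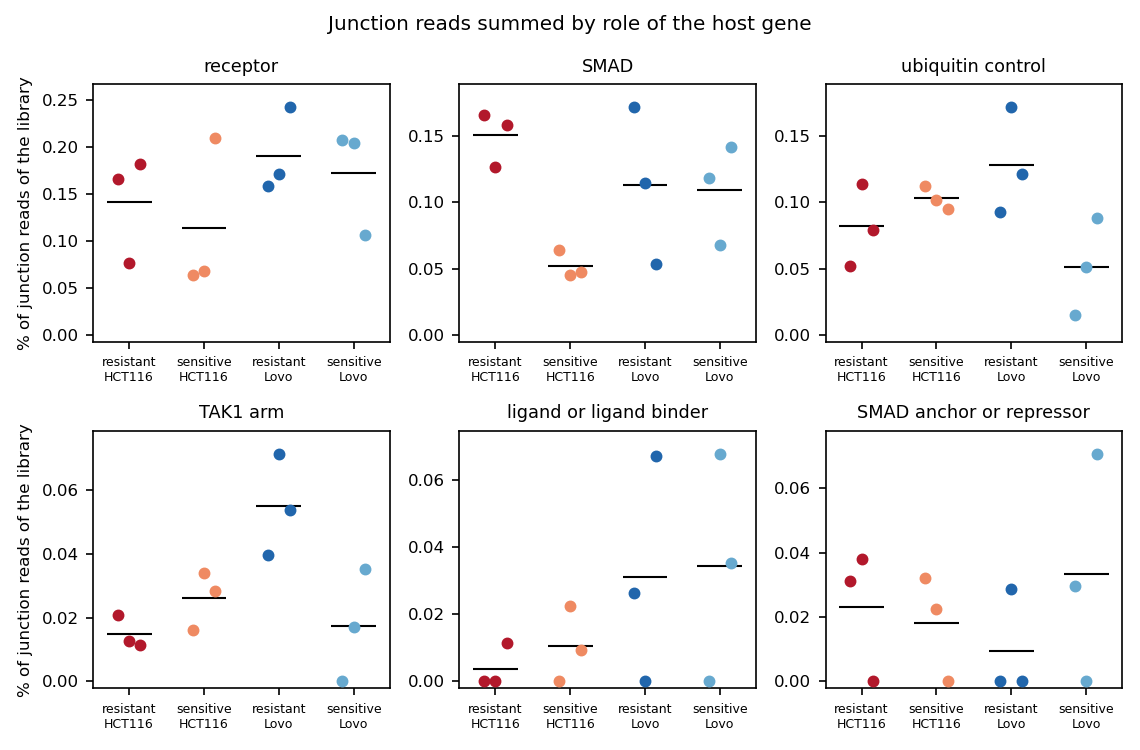
Junction reads summed by role of the host, as percent of the junction reads of each library; points are libraries, black lines group means. SMAD hosts in HCT116, and ubiquitin control hosts and the TAK1 arm in Lovo, show resistant libraries above all sensitive ones, while the receptor sums overlap in both lines.

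Within the SMADs the HCT116 contrast lay mostly in SMAD3 and SMAD5. SMAD3, which receives TGF-beta and activin signals, had 4, 1 and 6 reads in resistant HCT116 and 0 in all 3 sensitive libraries, at least 3.57-fold higher over the group (a floor of 3 reads), with or without resistant replicate 1. Replicate 3 held 6 of these 11 reads, so the fold is smaller without it, though still over the floor. In Lovo it had 0, 2 and 0 reads in resistant and 0 in sensitive cells. Its reads in resistant HCT116 came from 2 exonic junctions with no circBase record that share the start 67457233 on the plus strand of chromosome 15 (hg19). The one ending at 67457722 had 7 reads, 6 of them in replicate 3, and the one ending at 67479847 had 4 reads, all in replicate 1. Different junctions thus supplied the reads in those 2 libraries.

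SMAD5, which receives BMP signals, had 6, 2 and 0 reads in resistant HCT116, against 0 in all sensitive HCT116 libraries, at least 2.59-fold higher. Without resistant replicate 1 only 2 reads were left. In Lovo it had 5, 2 and 2 reads in resistant and 3, 0 and 2 in sensitive cells, a ratio of 1.50 (0.450 to 5.68), which was 1.01 without resistant Lovo replicate 1 and 2.36 without sensitive Lovo replicate 1. Its leading circRNA, hsa_circ_0007930 (chromosome 5, 135483521 to 135489852, plus strand, hg19), had 1 read in resistant HCT116, 0 in sensitive HCT116, 7 in resistant Lovo and 4 in sensitive Lovo. In sensitive HCT116, SMAD5 was at least 2.33-fold below sensitive Lovo, a bound that is lost without sensitive Lovo replicate 1 or 3, when 2 or 3 reads are left.

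SMAD2 and SMAD4 had reads in all 12 libraries. SMAD2, the partner of SMAD3 in TGF-beta signalling, had 4, 2 and 3 reads in resistant HCT116 and 1, 2 and 4 in sensitive HCT116, and 5, 2 and 1 in resistant Lovo and 1, 3 and 4 in sensitive Lovo. Of its 32 reads, 18 were hsa_circ_0000847 (chromosome 18, 45391430 to 45423180, minus strand, hg19). SMAD4, the common SMAD, had 2, 5 and 3 reads in resistant HCT116 and 2, 2 and 1 in sensitive HCT116, and 3, 2 and 1 in resistant Lovo and 3, 1 and 2 in sensitive Lovo. Its leading circRNA was hsa_circ_0006952 (chromosome 18, 48581151 to 48593557, plus strand, hg19), with 16 of 27 reads. Ratios in HCT116 were 1.25 (0.414 to 3.95) for SMAD2 and 1.94 (0.606 to 7.25) for SMAD4, and 0.831 for each in Lovo (0.272 to 2.54 and 0.222 to 3.11). With single libraries left out the Lovo ratios fell on both sides of 1, from 0.475 (without resistant replicate 1) to 1.15 for SMAD2 and from 0.634 to 1.05 for SMAD4. With SMAD3 and SMAD5 set aside, a choice made after seeing the data, the HCT116 sum was 21 against 13 reads, 1.57 (0.751 to 3.41). SMAD1, another SMAD activated by BMPs, had 4 reads, in 3 of the groups.

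Anchors and repressors were sparse. They had 6 reads in resistant HCT116, against 4 in sensitive HCT116, and 2 in resistant Lovo, against 6 in sensitive Lovo. ZFYVE16, which encodes an endosomal protein, had 5 reads, and ZFYVE9, an anchor that presents SMADs to receptors, had 4. LEMD3, an inner nuclear membrane protein that binds SMADs, had 3 reads, and the phosphatase gene PPM1A and the co-repressor genes SKI and SKIL had 2 each. Of these 6 hosts, 4 had reads in a single library.

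Ubiquitin control hosts had more reads in resistant than in sensitive Lovo. They had 7, 12 and 9 reads in resistant Lovo, against 1, 3 and 5 in sensitive Lovo, with no overlap. The ratio of 28 to 9 was 2.59 (1.19 to 6.23), and from 1.84 to 4.02 with each library left out, the highest without sensitive Lovo replicate 3. The interval took in 1 without resistant Lovo replicate 2 (0.902 to 5.56) or sensitive Lovo replicate 1 (0.816 to 4.67). In HCT116 they had 5, 9 and 7 reads in resistant and 7, 9 and 10 in sensitive cells, a ratio of 0.785 (0.420 to 1.45). Without SMURF2, also chosen after seeing the data, the Lovo ratio was 1.94 (0.852 to 4.81).

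TRIM33, a ubiquitin ligase that binds SMADs, had the only member circRNA seen in every library. Its host sum was 2, 4 and 3 reads in resistant HCT116, against 1, 7 and 7 in sensitive HCT116, a ratio of 0.583 (0.225 to 1.42). In Lovo it was 5, 5 and 2 reads in resistant and 1, 1 and 2 in sensitive cells, 2.49 (0.756 to 10.6), and in both lines the groups overlapped. Nearly all of it, 37 of 40 reads, was hsa_circ_0004127 (chromosome 1, 115005726 to 115007010, minus strand, 397 bases, hg19).

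SMURF2, a ubiquitin ligase for receptors and SMADs, had no read in sensitive Lovo. It had 0, 4 and 3 reads in resistant Lovo, at least 1.94-fold above the sensitive group at 0. Without resistant Lovo replicate 2 only 3 reads were left, which gives no fold. In HCT116 it had 3, 4 and 0 reads in resistant and 6, 2 and 3 in sensitive cells, a ratio of 0.619 (0.203 to 1.75), which turned to 1.03 without sensitive HCT116 replicate 1 and was 0.379 without resistant HCT116 replicate 2. Sensitive HCT116 was at least 2.62-fold above sensitive Lovo with no overlap.

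The 3 circRNAs of SMURF2 lie on the minus strand of chromosome 17 (hg19). The circRNA hsa_circ_0007434 (62557618 to 62568074) had 0, 1 and 0 reads in resistant HCT116 and 3, 2 and 3 in sensitive HCT116, and none in Lovo. The ratio of 1 to 8 reads was 0.122 (0.00274 to 0.907), with no overlap between the groups. The edgeR fit without a filter gave it an adjusted p of 0.668 (unadjusted 0.178). Without resistant replicate 2 no resistant read was left. The circRNA hsa_circ_0005637 (62567916 to 62582288) had 3 reads each in resistant and sensitive HCT116. It had 0, 4 and 1 reads in resistant Lovo and 0 in sensitive Lovo, 1.39-fold above the floor of 3 reads with counting error left out. Without resistant Lovo replicate 2, 1 read was left, under the floor.

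NEDD4L, a ligase that marks activated SMAD2 and SMAD3 for decay, had 0, 1 and 2 reads in resistant HCT116 and 0 in sensitive HCT116, and 2, 0 and 4 in resistant Lovo and 0 in sensitive Lovo. All 6 resistant Lovo reads were hsa_circ_0108704 (chromosome 18, 55912659 to 55919286, plus strand, hg19). That was 1.66-fold above the floor of 3 reads set for sensitive Lovo, with the counting error of the 6 reads left out. Without resistant Lovo replicate 3 only 2 reads were left, under the floor. NEDD4L, BMPR1A and SMAD3 thus had reads in both resistant groups and in no sensitive library (3 of 29 members, 10.3%), as did 2.71% of all hosts. USP15, a deubiquitinase of the pathway, had 8 reads, and the ligase gene SMURF1 had 2.

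In the TAK1 arm TAB2, an adaptor that joins TAK1 to ubiquitin chains, had 24 of the 26 reads. It had 1, 5 and 4 reads in resistant Lovo, against 0, 1 and 2 in sensitive Lovo, a ratio of 2.77 (0.714 to 15.7), which was 5.74 (0.817 to 249) without sensitive Lovo replicate 3 and 1.75 (0.451 to 9.90) without sensitive Lovo replicate 1. In HCT116 it had 2, 1 and 1 reads in resistant and 1, 3 and 3 in sensitive cells, 0.556 (0.119 to 2.19), and the groups overlapped in both lines. Its leading circRNA, hsa_circ_0078201 (chromosome 6, 149699154 to 149700654, plus strand, hg19), held 10 reads, and 3 of its 4 circRNAs ended at 149700654. With the 2 reads of TAB1, both in resistant Lovo replicate 1, the TAK1 arm had 3, 5 and 4 reads in resistant and 0, 1 and 2 in sensitive Lovo. Per junction read these groups did not overlap, at a ratio of 3.33 (0.897 to 18.4). It was 6.89 without sensitive Lovo replicate 3 and 2.10 without sensitive Lovo replicate 1.

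**Figure D5:**
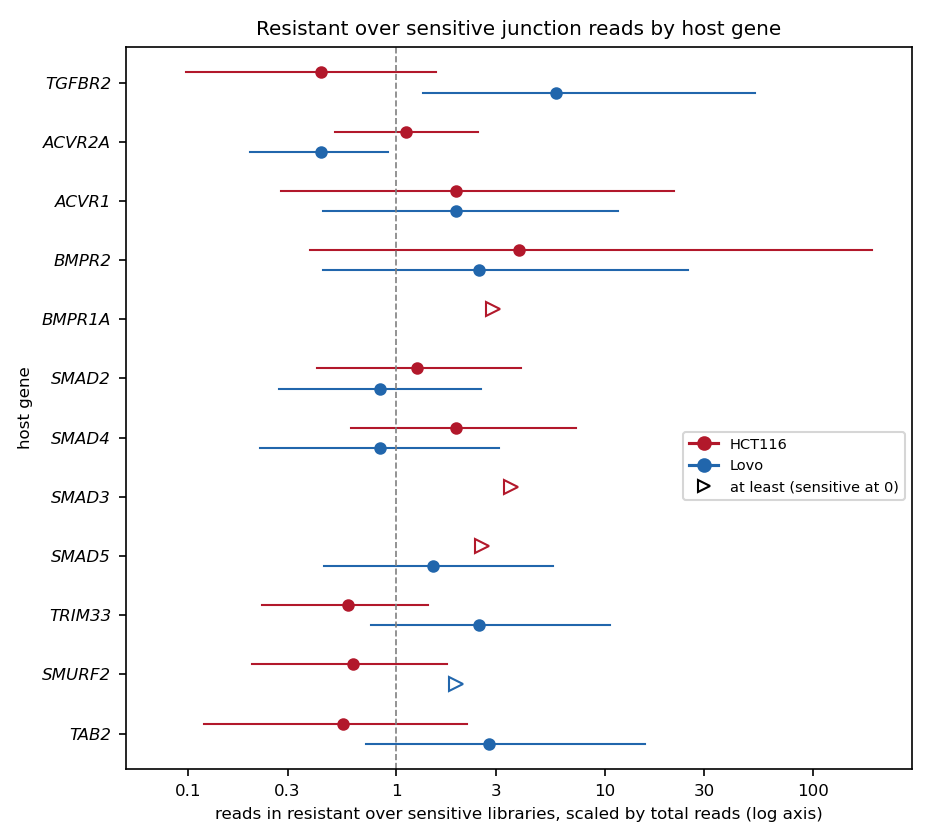
Ratio of junction reads in resistant over sensitive libraries for the 12 hosts with at least 10 reads (log axis, scaled by total junction reads), HCT116 in red and Lovo in blue; lines are exact conditional binomial 95% intervals, and open arrows are lower bounds where the sensitive group had 0 reads. Among hosts with reads in both groups, only TGFBR2 and ACVR2A in Lovo have an interval that leaves out 1, on opposite sides. No interval was taken where the sensitive group had 0 reads. The arrows (SMAD3, SMAD5 and BMPR1A in HCT116, SMURF2 in Lovo) thus do not show whether counting error covers those differences. SMAD3 and BMPR1A in Lovo are not drawn, with 2 reads against 0.

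For the wider pathway, 104 further genes were looked up: 48 had rows and 42 had reads, over 185 circRNAs. In HCT116, where the larger resistant share of the members was within counting error, the summed reads of these further genes were lower in resistant cells. They had 59, 41 and 58 reads in resistant HCT116, against 55, 101 and 77 in sensitive HCT116, lower per junction read in every resistant library. The ratio of 158 to 233 reads was 0.659 (0.535 to 0.810), and from 0.580 to 0.762 with each library left out. SMAD co-factors and nuclear partners had 56 against 84 reads, 0.648 (0.454 to 0.920), and adaptors with the SMAD-independent arm 38 against 76, 0.486 (0.320 to 0.727), both with no overlap. Ubiquitin and phosphatase control had 56 against 70, 0.778 (0.537 to 1.12), with overlap. The few reads left were of receptors and co-receptors, 7 against 1, and of ligands and antagonists, 1 against 2. Much of the HCT116 gap lay in CREBBP, a co-factor with 13 reads in resistant and 42 in sensitive cells. The gap of the co-factor sum was thus that of CREBBP, and the other co-factor hosts ran both ways. Much of the rest lay in MAP3K4, of the adaptor sum, with 12 and 41. The lower HCT116 sum of the further genes thus rested largely on CREBBP and MAP3K4. The other hosts ran both ways, and no ratio or interval without CREBBP and MAP3K4 was taken. In Lovo the sum was 179 reads in resistant and 151 in sensitive cells, 0.985 (0.789 to 1.23). These sums were added after the values were seen.

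Of these further genes, 4 circRNAs and 6 host sums could be tested in edgeR, and 0 were called between resistant and sensitive cells of either line. Of all features tested, 1.00% of circRNAs and 0.517% of hosts were called in HCT116 and 0% in Lovo. At an unadjusted p under 0.05 stood 3 of the 4 circRNAs and 2 of the 6 hosts in HCT116, against 30 of 300 and 37 of 580. In Lovo none stood there, against 17 of 300 and 30 of 580. Between lines 0 of the 6 host sums passed in either state, against 10.0% of all hosts between the sensitive and 11.9% between the resistant lines. Of the 4 circRNAs, 1 passed between the sensitive lines, against 14.3% of all circRNAs, and 1 between the resistant lines, against 16.7%. That of CREBBP, an acetyltransferase co-activator of SMADs (hsa_circ_0007637, chromosome 16, 3900298 to 3901010, hg19), had 11, 14 and 14 reads in sensitive HCT116, against 1, 6 and 1 in sensitive Lovo. It was higher in HCT116 by 2.03 ± 0.75 on the log2 scale (SE, edgeR adjusted p = 0.0499). That of MAP3K4, which encodes a kinase of the stress-activated MAPK cascades (hsa_circ_0078619, chromosome 6, 161469648 to 161471011, hg19), had 0 reads in every resistant HCT116 library and 4, 1 and 5 in resistant Lovo (edgeR adjusted p = 0.0493). Both lay at the edge of the threshold: CREBBP passed in 4 of 19 alternative settings (adjusted p 0.0197 to 0.691) and MAP3K4 in 5 of 18 (0.035 to 0.55).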

How the data were processed

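The deposited table gives, for every circRNA and library, a whole-number count of reads over the back-splice junction, which the authors left unnormalized, per the file headers. The submitters' processing notes list build hg19 and the tools cutadapt 1.9.3, STAR 2.5.1b and edgeR 3.16.5 without saying what each did. The circRNA caller, its annotation and the minimum for listing were not given in the sources used here. Libraries were rRNA-depleted and directional, per the labels. Positions are 1-based.

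The 41 genes, the 104 further genes and the marker genes were chosen with earlier results of these data known. Counts per circRNA, and counts summed per host, were fitted in edgeR 4.0.16 (R 4.3.3): TMM, filterByExpr with minimum count 5 and minimum total count 15, 1 model for the 12 libraries (4 group means, leaving 8 residual degrees of freedom), quasi-likelihood F-test, Benjamini-Hochberg adjustment over all features tested (300 circRNAs, 580 hosts). A call needed adjusted p under 0.05. The SE printed with a log2 fold change is not an edgeR output: it is the absolute change divided by the square root of F. The 22 circRNAs with no host entered the circRNA fits alone. DESeq2 1.42.0, limma 3.58.1 (voom) and other settings were alternatives.

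Ratios of summed reads were scaled by total junction reads, with exact conditional binomial 95% intervals. Against 0 reads, a floor of 3 reads per group was used, and the counting error of the other group was not included. Thinning took the hypergeometric expectation. Principal components used log2(CPM + 200).

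Library values were to be given for members passing the filter, group sums for the leading circRNA of hosts with 10 or more reads and for circRNAs with 5 or more reads against 0. Library values for the other hosts with 10 or more reads, names and sums below that, sums over the 104 further genes, and summed reads with single libraries left out were added after the values were seen. Sums by role were not planned either.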

Additional observations from a re-analysis of the deposited data

How the results depend on the processing

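The count of members called stayed at 0 in the 5 contrasts under RLE or total-count scaling, without a filter, in DESeq2 and limma-voom, with a replicate block and with each library left out. Outside the fits without a filter, 1 or 2 members could be tested in each of these. With only the compared groups it was 0 in HCT116 and Lovo at both levels and for the host sum between the resistant lines. There no member was tested between the sensitive lines, nor as a circRNA between the resistant lines, and the difference of effects, which needs all 4 groups, was not run. With a minimum count of 10 no member was left to test. Leaving out single libraries turned the sign of ACVR2A between the resistant lines and, for the host sum, in HCT116. Its circRNA between resistant lines ranged from -0.13 to 1.15. Its host sum ranged from -0.14 to 0.58 in HCT116 and from -0.19 to 0.56 between resistant lines (log2, none called). The mean share of junction reads on the members moved by more than its SD to 0.330% in resistant HCT116 and 0.473% in resistant Lovo with circBase circRNAs only, to 0.491% in resistant Lovo with exonic circRNAs only, and to 0.356% in resistant HCT116, 0.474% in resistant Lovo and 0.296% in sensitive Lovo without ACVR2A. The cause was not tested for the circBase and exonic subsets beyond the fewer circRNAs counted.

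Deviations of same-numbered libraries of a line correlated at -0.045 to 0.062 over circRNAs, and those of differently numbered ones at -0.067 to 0.069. Over hosts the ranges were -0.005 to 0.074 and -0.063 to 0.052. With a handful of reads per circRNA, values near 0 cannot show whether the libraries were paired. With the replicate block the ACVR2A circRNA stood at 0.57 in HCT116 and -1.48 in Lovo (log2, edgeR adjusted p = 0.974 and 0.829), with 0 calls.

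Scaling by totals in place of TMM shifted the median log2 change of the circRNAs tested by -0.24 between the sensitive lines and -0.11 between the resistant lines, so line ratios given per total reads lean to Lovo by that much. All-member ratios with TMM were 1.17 in HCT116, 1.32 in Lovo, and 0.958 between the sensitive lines against 0.799 by totals. Few reads per circRNA limited the tests to 1 member.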
